A study of Mus musculus with 24 samples.

Results

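H19 and 9 other imprinted genes that act on growth were followed through RNA-seq libraries of mice given β-nicotinamide mononucleotide (β-NMN) or vehicle after experimental peritonitis. The genes were H19, Igf2, Igf2r, Dlk1, Meg3, Cdkn1c, Plagl1, Peg3, Grb10 and Mest, found by symbol as 10 of the 54658 gene symbols in the count tables. The set was chosen by the heart values, since H19 had the smallest p of all genes between β-NMN and vehicle hearts, and imprinted growth genes were placed around it. The heart values of β-NMN against vehicle are therefore a description without a test.

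All mice were male C57BL/6 animals of 7 to 12 weeks, and no group was free of peritonitis. Hearts and lungs came from the same 6 mice, collected 24 h after cecal ligation and puncture (CLP, a polymicrobial sepsis), of which 3 had received saline vehicle and 3 had received β-NMN at 185 mg/kg. Peritoneal cells came from 12 other mice on day 3 after injection of thioglycollate medium (TGC, a sterile irritant that draws leukocytes into the peritoneum), 6 given vehicle and 6 given β-NMN at the same daily dose. By the methods the peritoneal mice were injected on each of 3 days, whereas the organs were taken a day after CLP and the first dose, so that the number of doses differed with the tissue. These cells were plated and exposed to E. coli for 6 h before lysis, so both peritoneal groups had met bacteria.

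Imprinted genes are expressed from the copy inherited from 1 parent, and many of them set the growth of the fetus and are turned down after birth. IGF2 is a fetal growth factor, and IGF2R is the receptor that carries it to the lysosome for destruction. H19 is a maternally expressed noncoding RNA next to Igf2, which shares its enhancers and persists in adult striated muscle. Igf2, Dlk1, Plagl1, Peg3 and Mest are known as paternally expressed in most tissues, and H19, Igf2r, Meg3, Cdkn1c and Grb10 as maternally expressed. The mice were inbred, and the counts give the sum of both alleles.

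On GRCm38, H19 (ENSMUSG00000000031.16, lincRNA) occupies chr7:142575529-142578143 on the minus strand, and Igf2 (ENSMUSG00000048583.16) lies 72.6 kb away on the same strand at chr7:142650766-142666816. Dlk1 and Meg3 are a second pair of neighbours, 77.7 kb apart on chromosome 12. The annotation places 9 mature miRNAs, with 9 different seeds, inside 4 of the genes, and their miRNA genes, counted apart from the hosts, held at most 2 counts each over the 24 libraries. The libraries were made from poly(A) RNA, so that these counts do not measure the mature miRNAs. The pair from an exon of H19 is shown because it is made from the transcript that led to the choice of these genes, with the seed (bases 2 to 8) in capitals, from RefSeq.
mmu-miR-675-5p: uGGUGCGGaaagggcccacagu
mmu-miR-675-3p: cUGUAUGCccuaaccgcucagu

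Of the 10 genes, 8 had an entry among the RefSeq promoter windows of GRCm38.p6, which run from 250 bases before to 50 bases after a start site. H19 and Cdkn1c had none. The windows of Plagl1 and Grb10 are shown because these genes changed in peritoneal cells, and that of Peg3 because its heart groups did not overlap. Every CpG, the dinucleotide at which imprinted promoters carry methylation, is in capitals.
Plagl1, chr10:13090582-13090881, plus strand: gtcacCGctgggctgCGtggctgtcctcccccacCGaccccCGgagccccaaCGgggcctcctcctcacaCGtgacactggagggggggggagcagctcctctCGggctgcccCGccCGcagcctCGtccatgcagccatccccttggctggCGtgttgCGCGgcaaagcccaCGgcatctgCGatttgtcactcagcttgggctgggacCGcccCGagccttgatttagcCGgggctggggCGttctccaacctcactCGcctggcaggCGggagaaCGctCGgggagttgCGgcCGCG
Grb10, chr11:12037371-12037670, minus strand: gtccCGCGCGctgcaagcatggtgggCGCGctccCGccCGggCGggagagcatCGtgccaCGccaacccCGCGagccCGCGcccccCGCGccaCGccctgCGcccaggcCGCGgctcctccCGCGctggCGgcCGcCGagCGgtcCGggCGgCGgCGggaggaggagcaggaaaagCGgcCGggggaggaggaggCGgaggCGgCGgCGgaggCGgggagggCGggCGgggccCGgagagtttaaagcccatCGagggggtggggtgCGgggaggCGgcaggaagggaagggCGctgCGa
Peg3, chr7:6730370-6730669, minus strand: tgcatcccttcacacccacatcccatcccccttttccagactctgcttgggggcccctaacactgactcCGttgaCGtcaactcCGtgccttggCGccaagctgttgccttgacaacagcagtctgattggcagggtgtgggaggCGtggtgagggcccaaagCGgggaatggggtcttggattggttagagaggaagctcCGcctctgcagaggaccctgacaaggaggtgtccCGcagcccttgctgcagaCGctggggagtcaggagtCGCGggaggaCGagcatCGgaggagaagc

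The Grb10 window shown held 45 CpGs, a number reached by 1.9% of 32851 promoter windows, while a second Grb10 window at chr11:12027922-12028221 held 9, reached by 45.8%. The Plagl1 window held 26 CpGs, reached by 16.9%, and the Peg3 window 13, reached by 37.9%. The median window held 7. The motif TGACGTCA, a palindrome and so the same on both strands, was found in the windows of Peg3 and of Meg3 (chr12:109540746-109541045) and in 1.79% of all windows. DNA methylation was not measured in these samples.

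The tables hold whole-number read counts per gene. Totals ranged from 27319513 to 68523239 in hearts, from 8915366 to 28356786 in lungs and from 31126823 to 112456050 in peritoneal cells. The tissue labels matched the markers: 7 cardiomyocyte genes summed to between 32300 and 59900 CPM (counts scaled to a common library size) in every heart, 6 lung epithelial genes to between 54900 and 99400 CPM in every lung, and 5 macrophage genes to between 5190 and 11600 CPM in every peritoneal library. Both organs of vehicle replicate 2 stood apart from the rest. Over the genes tested, the SD of the log2 difference from the other libraries of the organ was 0.99 for this heart and between 0.39 and 0.58 for the other hearts. It was 1.57 for this lung, which also had the lowest total, and between 0.45 and 0.60 for the other lungs. Atrial markers summed to 9640 CPM in this heart and to between 31.1 and 1170 CPM in the other vehicle hearts. All libraries are bulk RNA, in which fewer cells of a type and less RNA per cell cannot be told apart.

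The levels of the genes were first compared with each other as CPM per kilobase of exon (RPKM), with the heart and lung libraries scaled together and the peritoneal libraries scaled on their own. In hearts the highest median was that of Igf2r, at 25.6 RPKM with a range of 12.3 to 29.5 over 6 libraries. H19 followed at 15.5 RPKM with a range of 6.47 to 29.6, then Grb10 at 9.72, Cdkn1c at 6.83, Peg3 at 2.79, Plagl1 at 1.11, Mest at 0.876, Meg3 at 0.769 and Igf2 at 0.542. Each gene in this order overlapped with the next, except that Igf2 lay above Dlk1, whose median was 0.0176 RPKM. This order pools both treatments and held in neither. In vehicle hearts the median of H19 was 24.8 RPKM and that of Igf2r 20, while in β-NMN hearts H19 at 7.43 RPKM came after Igf2r at 26.3, Grb10 at 10.6 and Cdkn1c at 8.18. Igf2 was second to last in both, at 0.756 and 0.32 RPKM.

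In lungs the order began with Cdkn1c, which encodes the cell cycle inhibitor p57, at 9.65 RPKM with a range of 8.32 to 14.5. It lay above Igf2r at 6.8 RPKM with no overlap between the libraries. Grb10 at 3.01, Peg3 at 2.73, Plagl1 at 1.38, Mest at 0.669 and Meg3 at 0.514 RPKM came next, each overlapping with its neighbours. H19 came next at 0.288 RPKM, with a range of 0.0431 to 0.345 that lay below that of Meg3 but overlapped with Mest, and Igf2 had a median of 0.0244 and Dlk1 of 0.00242 RPKM.

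Peritoneal cells expressed fewer of the genes. Igf2r led again, with a median of 21.6 RPKM and a range of 19.1 to 30.6 over 12 libraries, and no other gene reached its range. Plagl1 at 3.81 and Cdkn1c at 1.88 RPKM overlapped with each other and stood above the rest. Grb10 had a median of 0.126 RPKM, Meg3 of 0.0737, Dlk1 of 0.0531, Mest of 0.0293, H19 of 0.0203 and Peg3 of 0.0103 RPKM, and Igf2 had a median of 0. This order pools both treatments. In vehicle libraries the median of H19 was 0.105 RPKM, above Meg3 at 0.0737, Dlk1 at 0.0536 and Mest at 0.0332 RPKM. In β-NMN libraries it was 0.0139 RPKM. The plot of levels by tissue sets these values side by side.

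**Figure D1:**
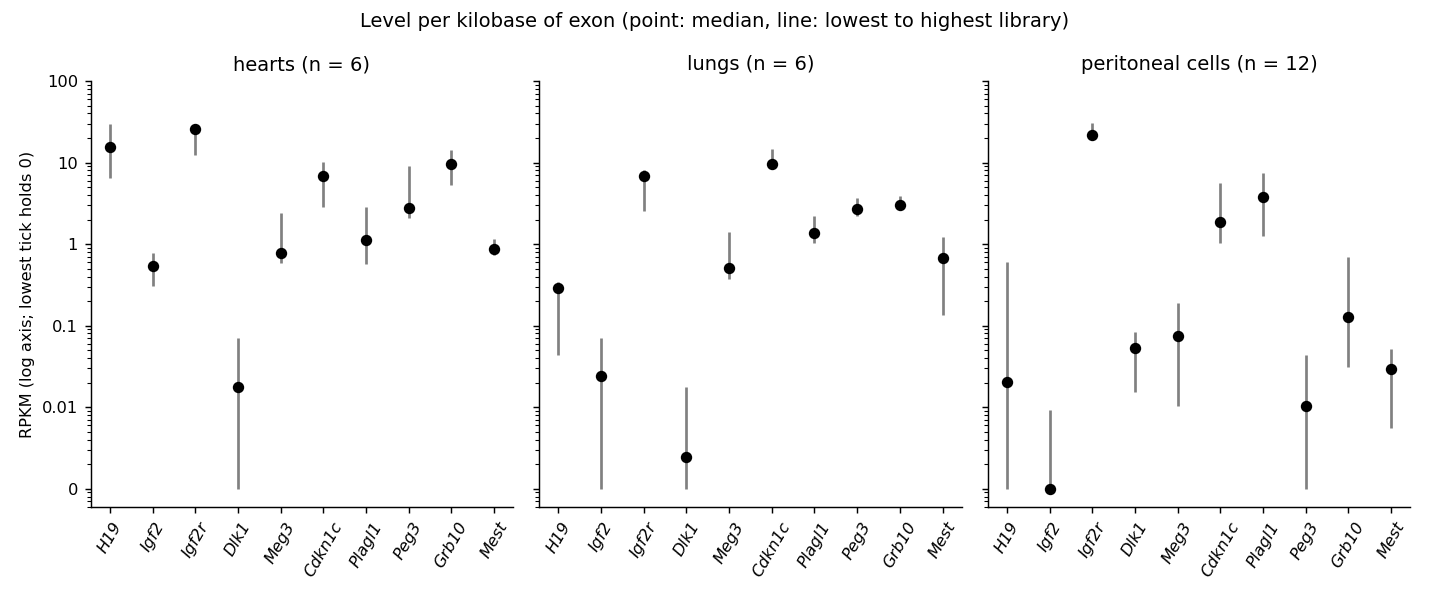
Level of the 10 imprinted genes in RPKM (log axis, lowest tick holds 0) in hearts, lungs and peritoneal cells. Points are medians over all libraries of a tissue and lines run from the lowest to the highest library. Igf2r is high in all panels, while H19 stands at a median of 15.5 in hearts, 0.288 in lungs and 0.0203 in peritoneal cells.

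The organs of the CLP mice were then compared with the treatment in the model. Heart and lung differed at an adjusted p below 0.05 for 65% of the 18318 genes tested, with 29.1% higher and 35.9% lower in heart. Of the 10 imprinted genes 8 passed the low-count filter in both organs, and 4 of these differed, 3 of them higher in heart. H19 was 40.7 ± 25.4 CPM in hearts and 0.619 ± 0.269 CPM in lungs (SD, n = 6 each), a log2 fold change of 5.66 (SE 0.43) with an adjusted p of 1.99e-07 in edgeR's quasi-likelihood test. A gene chosen for its p in hearts had to be expressed there, so that this difference was not independent of the choice. Igf2 was between 1.76 and 4.43 CPM in hearts and between 0 and 0.403 CPM in lungs, where it had between 0 and 12 counts. It passed the filter through the hearts and not in lungs alone, so that it had to differ to be tested, and no test is given for it.

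The other 2 genes higher in heart act at the receptors. Igf2r was 216 ± 57.3 CPM in hearts and 59.7 ± 18.9 CPM in lungs, a 3.59-fold difference (log2 1.84, SE 0.26, adjusted p = 4.87e-05). Grb10, which encodes an adaptor that dampens signalling of the insulin and IGF1 receptors, was 89.2 ± 25.6 CPM in hearts and 28 ± 3.86 CPM in lungs, a 3.14-fold difference (log2 1.65, SE 0.18, adjusted p = 4.38e-06). For H19, Igf2r and Grb10 all hearts lay above all lungs, as for 21.8% of all genes tested. Cdkn1c was lower in heart, at 14 ± 4.92 against 21.1 ± 4.51 CPM, by 0.61 on the log2 scale (SE 0.22, adjusted p = 0.0259) with overlap between the organs. This call was lost when vehicle mouse 1, β-NMN mouse 1 or β-NMN mouse 3 was left out (adjusted p = 0.0557, 0.0922 and 0.073) and in the vehicle mice alone (adjusted p = 0.174). Without vehicle mouse 2, whose organs stood apart, the log2 value was -0.35 (adjusted p = 0.0486).

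For Meg3, Mest, Peg3 and Plagl1 the organs were not shown to differ. Meg3, a maternally expressed noncoding RNA, was 17.9 ± 12.5 CPM in hearts and 11.9 ± 7.03 CPM in lungs (log2 0.56, SE 0.38, adjusted p = 0.213). With the mouse as a block its log2 fold change was 0.55 (SE 0.18, adjusted p = 0.0255), and without vehicle mouse 2 it was 0.61 (adjusted p = 0.0123). The log2 fold changes were 0.33 for Mest, 0.30 for Peg3 and -0.25 for Plagl1, with adjusted p of 0.469, 0.419 and 0.566.

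In the comparison of β-NMN with vehicle, H19 was the gene with the smallest p in hearts. It was at 44, 58.5 and 48.4 CPM in the 3 vehicle hearts and at 14.5, 15.5 and 12.6 CPM in the 3 β-NMN hearts. All β-NMN hearts lay below all vehicle hearts, with a mean of 14.2 ± 1.45 against 50.3 ± 7.45 CPM (SD, n = 3 each). The fitted log2 fold change was -1.82 (SE 0.15), that is 3.54-fold lower with β-NMN. Leaving out each heart in turn gave values between -1.91 and -1.71, and without vehicle replicate 2 it was -1.71.

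Igf2 followed the same direction at a lower level. It was at 2.81, 3.56 and 3.43 CPM in vehicle hearts and at 1.45, 2.03 and 1.4 CPM in β-NMN hearts. The groups did not overlap, and the level with β-NMN was 2-fold lower (SE 0.25 on the log2 scale). The ratio of H19 to Igf2 counts within a library, which no scaling between libraries can alter, was 15.6, 16.5 and 14.1 in vehicle hearts and 9.97, 7.63 and 9.06 in β-NMN hearts. The ratios of the groups did not overlap, β-NMN being lower, which describes values that led to the choice of H19. Igf2os, an annotated antisense gene that overlaps exons of Igf2, had between 5 and 34 counts in hearts. With the strand setting of the counting unknown here, reads of the pair cannot be told apart.

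Plagl1, a paternally expressed zinc finger transcription factor, was at 7.27, 18.1 and 10.2 CPM in vehicle hearts and at 3.5, 3.86 and 6.42 CPM in β-NMN hearts. Its groups did not overlap, and its log2 fold change was -1.36 (SE 0.39). Peg3, also a zinc finger protein gene, was at 32.2, 95.9 and 38 CPM in vehicle hearts and at 23.8, 21.9 and 26.3 CPM in β-NMN hearts (log2 -1.21, SE 0.41). Vehicle replicate 2 held the highest value of both genes. Without this heart the log2 fold change was -0.91 (SE 0.28) for Plagl1 and -0.55 (SE 0.12) for Peg3, and the remaining groups still did not overlap.

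The other genes overlapped between the heart groups. Igf2r was at 146, 92.2 and 191 CPM in vehicle and at 187, 214 and 194 CPM in β-NMN hearts. Grb10 was at 65.8, 39.3 and 71.2 CPM in vehicle and at 76.6, 67.9 and 102 CPM in β-NMN hearts. Cdkn1c was at 10.1, 4.63 and 11.7 CPM in vehicle and at 13.2, 16 and 10.4 CPM in β-NMN hearts. For these maternally expressed genes, which restrain growth, the lowest heart was vehicle replicate 2 in each case. Their log2 fold changes of 0.48 (SE 0.26), 0.49 (SE 0.26) and 0.59 (SE 0.35) were 0.23, 0.26 and 0.27 without that heart.

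Meg3 showed how far a single heart could carry a value. It was at 11.8, 34.6 and 8.29 CPM in vehicle and at 10.4, 11.4 and 8.42 CPM in β-NMN hearts, and its log2 fold change of -0.86 (SE 0.51) was -0.01 (SE 0.19) without vehicle replicate 2. Mest, which encodes a membrane protein with a hydrolase fold, was at 2.81, 3.67 and 2.33 CPM in vehicle and at 2.42, 2.59 and 3.54 CPM in β-NMN hearts (log2 -0.04, SE 0.26). It shares exon sequence with Copg2 on the opposite strand. Dlk1, a membrane protein gene related to Notch ligands, had at most 17 counts in a heart and was not tested.

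Over all hearts 4 of the 9 genes tested lay lower in every β-NMN heart than in every vehicle heart, and none lay higher. Of all 16245 genes tested, 11.5% lay lower and 11.6% higher without overlap, and nothing is read from the count since the heart values led to the choice of the genes. No gene of the table was called in hearts (0%, smallest adjusted p 0.115), with 1837 genes at an unadjusted p below 0.05 and 283 genes called by DESeq2. The marker sums moved between the heart groups as well. Cardiomyocyte markers summed to between 32300 and 52800 CPM in vehicle hearts and between 54300 and 59900 CPM in β-NMN hearts, where 2 of 7 lay higher without overlap. Fibroblast markers summed to between 587 and 1350 CPM in vehicle and between 492 and 836 CPM in β-NMN hearts, with 1 of 7 lower without overlap, and neutrophil markers to between 19.3 and 34.1 and between 13.1 and 14.9 CPM, with 4 of 5 lower. Endothelial markers summed to between 838 and 864 CPM in vehicle and between 891 and 1040 CPM in β-NMN hearts, with 3 of 5 higher without overlap. Skeletal muscle markers summed to between 81 and 177 CPM in vehicle and between 213 and 582 CPM in β-NMN hearts, a sum made up by Acta1, an actin gene that heart muscle also expresses, with a median of 113 against 335 CPM, while Mylpf, Tnnt3 and Myod1 had medians below 1 CPM in both groups. Macrophage sums overlapped, at 218 to 337 and 230 to 437 CPM, with 2 of 5 lower without overlap. Atrial sums of 31.1 to 9640 and 43.5 to 214 CPM and mesothelial sums of 10.2 to 100 and 5.92 to 11.7 CPM overlapped, with the highest value of both in vehicle replicate 2. No list had a defining marker below 0.1 CPM in every heart except skeletal muscle (Myh1, Myh4), lung epithelium (Foxj1) and lymphocytes (Nkg7). The part of these cell types in the values of the imprinted genes was not tested.

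**Figure D2:**
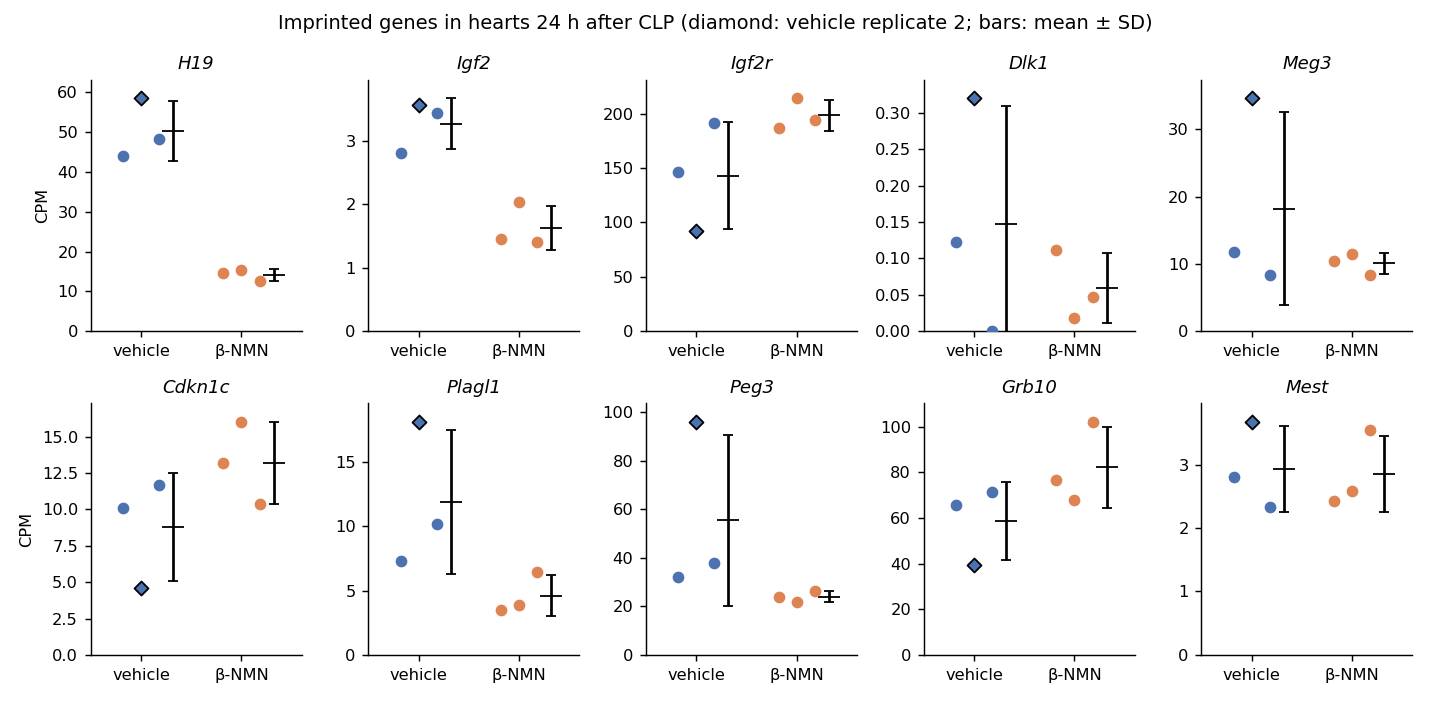
Levels of the 10 imprinted genes in hearts, in CPM on axes that start at 0, with 1 point per mouse and mean ± SD beside the points (n = 3 per group; bars that would pass below 0 end there). Diamonds mark vehicle replicate 2, which is the highest heart for H19, Igf2, Dlk1, Meg3, Plagl1, Peg3 and Mest and the lowest for Igf2r, Cdkn1c and Grb10. For H19 all vehicle hearts lie between 44 and 58.5 CPM and all β-NMN hearts between 12.6 and 15.5 CPM.

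The genes most like H19 were sought over the 12 heart and lung libraries, after the mean of each organ had been subtracted from log2 CPM. Among 12421 genes the highest Pearson correlations were those of R3hcc1l (0.942), Pdlim3 (0.939), Vwf (0.925), Maged2 (0.920) and Mmp19 (0.918). The libraries share mice, treatment groups and the library that stood apart in each organ, and the correlations are a description. Vwf, which encodes the von Willebrand factor of endothelium and platelets, was at 214, 331 and 215 CPM in vehicle and at 137, 172 and 112 CPM in β-NMN hearts. Pdlim3, which encodes a protein of the muscle Z-disc, was at 63, 65.2 and 41.5 CPM in vehicle and at 20.8, 27.5 and 27.9 CPM in β-NMN hearts. In lungs the library of vehicle replicate 2 held the lowest value of all 5 genes, as it did for H19.

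In lungs of the same mice, no difference in H19 was shown. It was at 1.05, 0.144 and 0.704 CPM in vehicle and at 0.975, 0.967 and 0.807 CPM in β-NMN lungs. The value of vehicle replicate 2 rested on 1 count, and the groups overlapped. The log2 fold change was 0.41 (SE 0.61, adjusted p = 0.969), and 0.05 without that lung. H19 had between 1 and 31 counts in a lung, and the SE was 0.43 without that lung. Whether treatment effects differed between the organs was tested with an interaction term, for which edgeR's test called 0 of 18318 genes (smallest adjusted p 0.96), with 797 at an unadjusted p below 0.05.

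Of the 10 genes 8 were tested in lungs, and none was called, nor was any gene of the table (0% of 17008). Among all genes edgeR's quasi-likelihood test gave 301 at an unadjusted p below 0.05 and DESeq2 called 9, and of the 8 imprinted genes none passed either. Cdkn1c was the 1 gene without overlap, as were 8.21% of all genes tested. It was at 20.9, 25.4 and 23.4 CPM in vehicle and at 38.1, 25.6 and 26.7 CPM in β-NMN lungs, with the lowest β-NMN lung just above the highest vehicle lung (log2 0.38, SE 0.24, adjusted p = 0.969). Without β-NMN replicate 1, the lung at 38.1 CPM, the log2 value was 0.17 (SE 0.24).

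Lung values of the other genes were Igf2r, log2 0.28 (SE 0.39), Plagl1, 0.32 (SE 0.34), Grb10, 0.16 (SE 0.22), Peg3, 0.06 (SE 0.29), Mest, 0.43 (SE 0.70), and Meg3, -0.54 (SE 0.57). Their adjusted p lay between 0.969 and 0.983. Vehicle replicate 2 held the extreme value of 3 of them. Igf2r was at 32.5 CPM there and between 74 and 96 CPM in the other lungs, Meg3 at 34.7 CPM and between 8.3 and 17 CPM in the others, and Mest at 0.722 CPM and between 2.4 and 5.97 CPM in the others. Without this lung Igf2r was -0.05, Meg3 0.30 and Mest -0.01, while leaving out β-NMN replicate 2 gave 0.01 for Plagl1 and 0.03 for Grb10. In vehicle replicate 2 fibroblast markers summed to 737, macrophage to 1240 and endothelial to 731 CPM. The other lungs lay at 957 to 1590, 3950 to 5410 and 1440 to 2230 CPM. Adipocyte, atrial and erythroid sums were higher in vehicle replicate 2, at 555, 375 and 7040 CPM. The other lungs lay at 34.2 to 121, 24.5 to 93 and 1500 to 3100 CPM. Macrophage sums did not overlap between the groups, at 1240 to 4240 CPM in vehicle and 4960 to 5410 CPM in β-NMN lungs. Most of it was Lyz2 (medians 3680 and 4800 CPM), with 1 of 5 markers higher and 1 lower without overlap. Of 5 endothelial markers 2 were higher without overlap. The part of these cells in the values was not tested.

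Igf2 and Dlk1 were not tested in lungs. Igf2 had 5, 0 and 12 counts in vehicle and 3, 12 and 3 in β-NMN lungs. Dlk1 had at most 3 counts in a lung.

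In peritoneal cells the comparison touched most of the transcriptome. Of 14985 genes tested 51.6% were called, 23.7% higher and 27.9% lower with β-NMN. Of the 10 imprinted genes 6 passed the low-count filter and 3 of these were called, 2 higher and 1 lower, a share close to that of all genes. The groups did not overlap for 2 of the 6, and for 26.6% of all genes.

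Cdkn1c rose. Its level was between 2.11 and 3.35 CPM (median 2.67) in the 6 vehicle libraries and between 4.31 and 11.4 CPM (median 10.3) in the 6 β-NMN libraries. All β-NMN libraries lay above all vehicle libraries, and the mean was 8.97 ± 2.76 against 2.64 ± 0.48 CPM (SD). The fold change was 3.4 (log2 1.77, SE 0.21, adjusted p = 1.01e-05).

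Plagl1, a transcription factor gene whose product is known to act on other imprinted genes, rose as well. It was between 9.73 and 21 CPM (median 18.4) in vehicle and between 38.6 and 58.8 CPM (median 47.6) in β-NMN libraries. Again no library of a group reached into the other, and the fold change was 2.8 (log2 1.48, SE 0.17, adjusted p = 6.09e-06). In hearts the same gene had been lower in every β-NMN mouse, and in lungs the groups overlapped. The difference between peritoneal cells and the organs, which are in different tables, was not tested.

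Grb10 fell. It was between 0.683 and 6.38 CPM (median 3.04) in vehicle and between 0.285 and 1.89 CPM (median 0.808) in β-NMN libraries, with a log2 fold change of -2.05 (SE 0.53, adjusted p = 0.00466). The groups overlapped, since vehicle replicate 1 was at 0.683 and vehicle replicate 6 at 1.38 CPM while β-NMN replicate 5 was at 1.89 CPM. Fold changes without each library in turn lay between -2.43 and -1.74 with adjusted p of at most 0.0139.

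**Figure D3:**
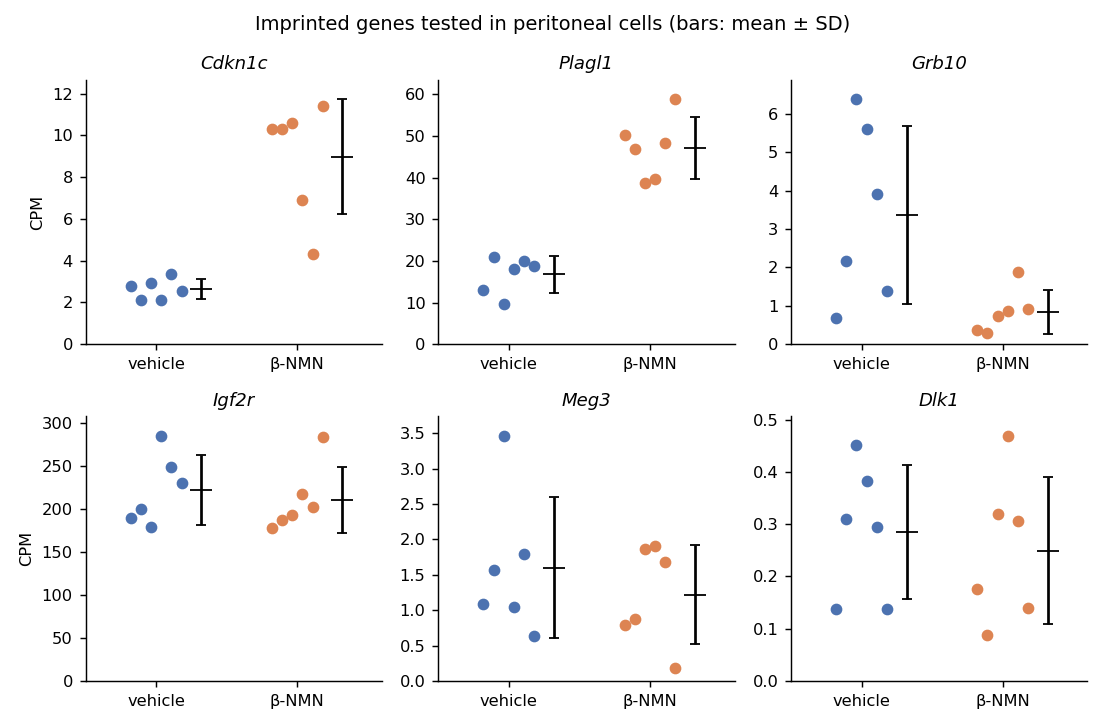
Levels of the 6 imprinted genes tested in peritoneal cells, in CPM on axes that start at 0, with 1 point per mouse and mean ± SD beside the points (n = 6 per group). Cdkn1c and Plagl1 are higher in all β-NMN libraries, Grb10 is lower with overlap, and Igf2r, Meg3 and Dlk1 overlap throughout.

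The libraries differed in depth in a way that was uneven between the groups. Of those above 70000000 counts 3 were vehicle and 2 were β-NMN, and of those below it 3 were vehicle and 4 were β-NMN. Among the deep libraries alone Cdkn1c was 2.01 (SE 0.22, adjusted p = 0.00145), Plagl1 1.43 (SE 0.12, adjusted p = 0.000611) and Grb10 -3.39 (SE 0.61, adjusted p = 0.00729) on the log2 scale. Among the shallow libraries alone Cdkn1c was 1.70 (SE 0.32, adjusted p = 0.00402) and Plagl1 1.69 (SE 0.26, adjusted p = 0.00125), whereas Grb10 was -1.46 (SE 0.60) and no longer called (adjusted p = 0.098).

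Markers of several cell types moved with the treatment in these cells. Of 5 macrophage markers 3 rose, with a sum between 5190 and 7920 CPM in vehicle and between 9770 and 11600 CPM in β-NMN libraries. Of 5 neutrophil markers 4 fell, with a sum between 487 and 986 CPM in vehicle and between 304 and 464 CPM in β-NMN libraries. Most of that sum was Csf3r, with medians of 562 CPM in vehicle and 370 CPM in β-NMN libraries. Medians went from 77.2 to 2.09 CPM for S100a8, from 73.2 to 0.95 CPM for S100a9 and from 4.18 to 0.252 CPM for Cxcr2. The median of Mmp8 went from 9.48 to 7.98 CPM. Of 7 fibroblast markers 4 were tested and all 4 fell, with a sum between 88.1 and 1050 CPM in vehicle and between 13.3 and 79.7 CPM in β-NMN libraries, and no marker of these 3 lists was below 0.1 CPM in every library. Pericyte and smooth muscle markers fell for 3 of 4 tested, from sums between 8.8 and 29.4 CPM to sums between 3.61 and 6.21 CPM, and mesothelial markers for 3 of 4 tested, from between 2.39 and 14.7 to between 1.43 and 4.93 CPM. Of 5 lymphocyte markers 4 fell, with sums between 16.7 and 78.2 CPM in vehicle and between 8.03 and 31.5 CPM in β-NMN libraries. All 3 erythroid markers rose, with sums between 2.69 and 33.1 CPM in vehicle and between 44.6 and 114 CPM in β-NMN libraries.

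Grb10 and the fibroblast sum took nearly the same order. In vehicle libraries Grb10 was highest, at 6.38 CPM, where the fibroblast sum was highest, at 1050 CPM, and next at 5.61 and 3.91 CPM where the sum was 414 and 250 CPM. In β-NMN libraries it was highest, at 1.89 CPM, where the sum was 79.7 CPM, and lowest, at 0.285 CPM, where the sum was 13.3 CPM. Cdkn1c in vehicle libraries had no such order, with 2.92 CPM at the highest sum and 2.11 CPM at the next. In β-NMN libraries it was lowest, at 4.31 CPM, where the sum was highest, and between 6.93 and 11.4 CPM in the others. The part of fibroblast, pericyte or mesothelial RNA in the difference of Grb10 was not tested.

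**Figure D4:**
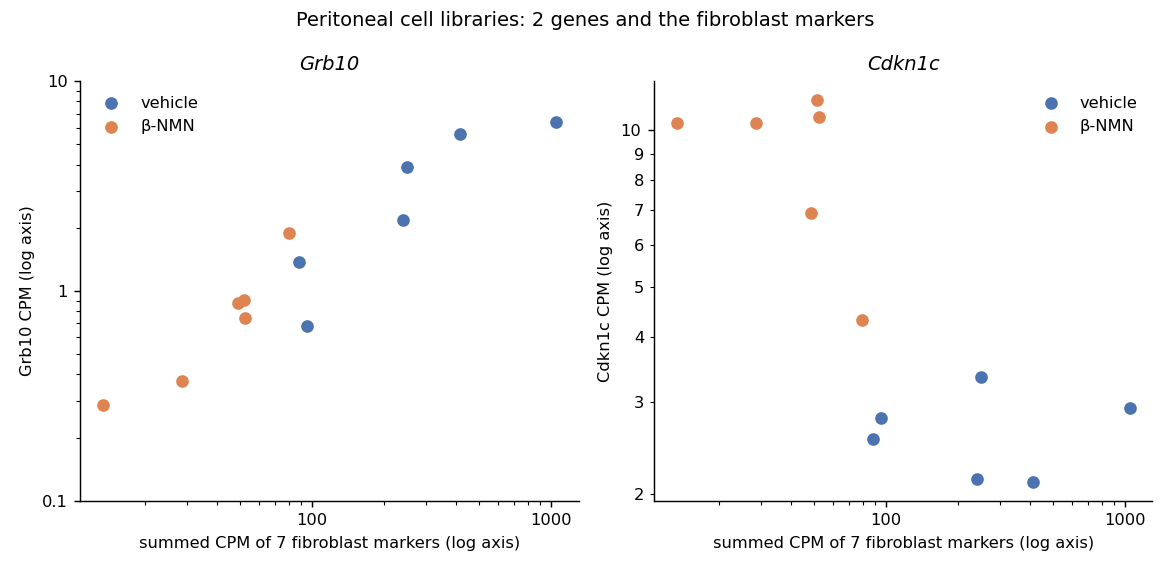
Grb10 and Cdkn1c (CPM, log axes) against the summed CPM of 7 fibroblast markers (log axis) in the 12 peritoneal cell libraries, 1 point per mouse and coloured by treatment. Grb10 runs from 0.285 CPM at a sum of 13.3 CPM to 6.38 CPM at a sum of 1050 CPM, while Cdkn1c stays between 2.11 and 3.35 CPM over all vehicle libraries.

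For the remaining genes tested, no difference was shown. Igf2r, the most abundant per length, was between 179 and 285 CPM (median 215) in vehicle and between 178 and 284 CPM (median 198) in β-NMN libraries, a log2 fold change of -0.08 (SE 0.13, adjusted p = 0.653). Its sign was not stable, being 0.04 without vehicle replicate 4, and -0.41 (adjusted p = 0.0529) in the deep and 0.27 (adjusted p = 0.198) in the shallow libraries. Meg3 was between 0.636 and 3.46 CPM in vehicle and between 0.186 and 1.9 CPM in β-NMN libraries (log2 -0.40, SE 0.46, adjusted p = 0.494), and 0.01 without vehicle replicate 3, where it was highest. Dlk1 was between 0.137 and 0.452 CPM in vehicle and between 0.0877 and 0.469 CPM in β-NMN libraries (log2 -0.26, SE 0.43, adjusted p = 0.643). The 5 genes whose log2 CPM was most like that of Igf2r over the 12 libraries were Esyt2 (0.928), Syne2 (0.923), Apc (0.921), Nin (0.914) and Nbeal1 (0.912), among 9635 genes. All of them overlapped between the groups.

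H19, Igf2, Peg3 and Mest were too low to be tested in peritoneal cells. H19 had 2, 23, 23, 164, 2 and 2 counts in vehicle replicates 1 to 6 and 2, 0, 2, 8, 0 and 2 counts in the β-NMN replicates, so that 1 library held 164 of the 216 vehicle counts. Without the low-count filter its log2 fold change was -3.23 with an adjusted p of 5.97e-05, a value that rests on few counts, most of them in that library. Igf2 had at most 3 counts in any library, Peg3 at most 26 and Mest at most 14. Most low counts in this table were even, with 59.2% to 68.2% of the counts from 1 to 100 divisible by 2 in peritoneal libraries against 40.5% to 45.7% in hearts and lungs. In all 12 peritoneal libraries more genes had a count of 2 than of 1, so that the counts of 2 given here are at the lower end of what the table resolves.

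The fold changes of the genes can be set side by side, without a test between the tissues beyond that of hearts against lungs given above. The 4 paternally expressed genes tested in hearts had log2 fold changes below 0, with a median of -1.10, and of the 5 maternally expressed genes 3 were above 0, with a median of 0.48. Without heart vehicle replicate 2 these medians were -0.73 and 0.23, and Mest, paternally expressed, lay above 0. In lungs the medians were 0.32 over 3 paternally and 0.28 over 5 maternally expressed genes, and in peritoneal cells 0.61 over 2 and -0.24 over 4. Over all 9, 8 and 6 genes tested the medians were -0.86 in hearts, 0.30 in lungs and -0.17 in peritoneal cells, where the medians over all genes were -0.0058, 0.00057 and -0.022. The heart median was carried by 1 library, and was -0.01 without vehicle replicate 2. Cdkn1c was above 0 in all 3 tissues, and its rise in peritoneal cells passed the test. Meg3 was below 0 in all 3, but was 0.30 in lungs without vehicle replicate 2 and 0.01 in peritoneal cells without vehicle replicate 3.

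**Figure D5:**
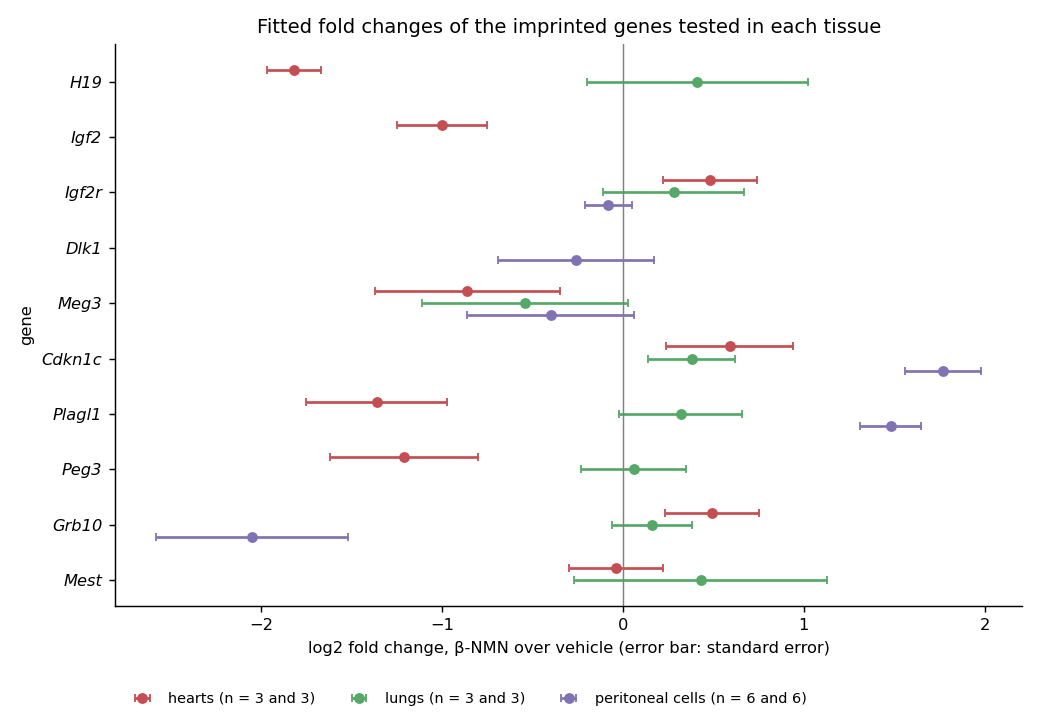
Log2 fold change of β-NMN over vehicle with its standard error for each imprinted gene that passed the low-count filter, in hearts, lungs and peritoneal cells. H19, Igf2, Plagl1 and Peg3 lie below 0 in hearts, lung values lie between -0.54 and 0.43, and Cdkn1c, Plagl1 and Grb10 lie far from 0 in peritoneal cells. Heart values led to the choice of the genes and carry no test.

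Other imprinted genes were taken from a list of 55, of which 54 were in the tables. In peritoneal cells 35 were tested, 11 rose, 8 fell and 16 did not pass, which is 54.3% called beside 51.6% of all genes. Zrsr1, which encodes a splicing factor, rose from 3.24 to 7.29 CPM on average (log2 1.17, SE 0.15, adjusted p = 2.18e-05) with no overlap. Inpp5f (log2 0.57), Airn (log2 0.90) and Ube3a (log2 0.43) also rose, with adjusted p of 0.000243, 0.000673 and 0.000785. Airn is the antisense noncoding RNA of the Igf2r locus, and it was between 0.894 and 1.74 CPM in vehicle and between 2.21 and 3.43 CPM in β-NMN libraries, while Igf2r was not shown to differ. No exon of Igf2r overlaps an exon of another gene. With the strand setting of the counting unknown here, unspliced reads of Igf2r cannot be told apart from reads of Airn. Dcn, which encodes decorin, a matrix protein made by fibroblasts, fell from 60.7 to 14.7 CPM (log2 -2.05, adjusted p = 0.000398), and Gab1 (log2 -0.63), Rian (log2 -2.01) and Blcap (log2 -0.35) fell as well, with adjusted p of 0.000706, 0.00275 and 0.00413. Rian is a noncoding RNA of the Dlk1 and Meg3 cluster, and its vehicle values were highest, at 4.21 CPM, in the library with the highest fibroblast sum.

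In hearts and lungs 42 and 44 of these genes were tested and none was called, with 5 and 2 at an unadjusted p below 0.05, beside 11.3% and 1.77% of all genes, and 1 and 0 called by DESeq2. Those with the smallest p in hearts were Zdbf2, at 0.415, 5.96 and 0.32 CPM in vehicle and 0.112, 0.0554 and 0.0775 CPM in β-NMN hearts, and Nap1l5, at 0.569, 8.03 and 1.25 CPM against 0.41, 0.499 and 0.357 CPM. Vehicle replicate 2 stood far above the other vehicle hearts for both, and neither gene overlapped between the groups. Zdbf2 passed the low-count filter through the vehicle hearts alone, so that it had to differ to be tested. In lungs they were Asb4, at 23.4 CPM in vehicle replicate 2 and between 0.513 and 0.877 CPM elsewhere, and Nnat, at 4.65, 5.06 and 9.15 CPM in vehicle and 11.8, 12.8 and 9.39 CPM in β-NMN lungs (adjusted p = 0.969). Between the organs 45 were tested, 19 were higher and 12 lower in heart (68.9%, beside 65% of all genes). Herc3 (8.86-fold), Snrpn (7.68-fold), Rian (4.2-fold) and Nap1l4 (2-fold) were higher in heart, and Slc22a18 (13.1-fold) and Kcnq1ot1 (6.82-fold) were higher in lung, with adjusted p of at most 0.000257. Kcnq1ot1 owed part of its fold to a pair of lungs at 158 and 146 CPM, the other 4 lying between 29.5 and 35.1 CPM. Rasgrf1 and Phlda2 were also called higher in lung but passed the filter through lung alone, Rasgrf1 being between 0.0195 and 0.147 CPM in hearts and between 0.318 and 3.08 CPM in lungs, and Phlda2 between 0 and 0.094 CPM and between 0.212 and 1.11 CPM.

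The receptors, binding proteins and inhibitors around IGF signalling and the cell cycle made a second list of 27 genes. In peritoneal cells 23 were tested, 4 rose, 10 fell and 9 did not pass, 60.9% called beside 51.6% of all genes. Irs2, which encodes an adaptor of the insulin and IGF1 receptors, fell 6.85-fold, from between 69.4 and 154 CPM in vehicle to between 13.1 and 17.8 CPM in β-NMN libraries (log2 -2.78, SE 0.16, adjusted p = 1.14e-08). The binding protein genes Igfbp6 (log2 -2.01, adjusted p = 5.12e-05) and Igfbp4 (log2 -1.76, adjusted p = 0.000153) fell without overlap. Igf2bp2, whose product binds the Igf2 mRNA among others, rose 1.95-fold (adjusted p = 0.00108), and Htra1 (log2 0.73), Igf1 (log2 0.56) and the insulin receptor gene Insr (log2 0.37) rose with adjusted p of 0.00421, 0.00477 and 0.00905.

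In hearts none of the 26 genes tested was called. Igfbp4 was at 241, 640 and 205 CPM in vehicle and at 138, 153 and 103 CPM in β-NMN hearts, and Igfals, which encodes the carrier subunit of circulating IGF complexes, was at 2.15, 0.564 and 2.33 CPM against 4.51, 5.49 and 4.9 CPM. In lungs none of 26 was called, and the smallest p belonged to Pappa (log2 -1.28, adjusted p = 0.969) and Igfbp5 (log2 -0.65, adjusted p = 0.969). At an unadjusted p below 0.05 there were 5 of these genes in hearts and 3 in lungs, where 11.3% and 1.77% of all genes passed, and DESeq2 called 1 and 0. Between the organs 26 were tested, 8 were higher and 6 lower in heart (53.8%, beside 65% of all genes). Insr (5.15-fold), Stc2 (4.21-fold) and Htra1 (1.7-fold) were higher in heart, and Igfbp6 (23-fold) and Igf2bp2 (1.87-fold) higher in lung, with adjusted p of at most 0.00126. Igfbp2 was called higher in lung as well, between 75.7 and 337 CPM there and between 0.0367 and 0.492 CPM in hearts. Igf2bp1, between 2.87 and 6.04 CPM in lungs and between 0 and 0.492 CPM in hearts, was called but passed the filter through lung alone.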

How the data were processed

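RNA-seq count tables of 12 heart and lung libraries and 12 peritoneal cell libraries were used. The authors deposited whole-number read counts per gene symbol, with no scaling applied. Reads came from poly(A) RNA and were mapped to mm10 by STAR and then assigned to genes by featureCounts, for which the submitters' processing notes give the versions 2.7.3a and 2.0.0. Neither gene annotation nor strandedness is given in the sources used here, and reads are described both as single-end and as paired-end. Total counts ranged from 8915366 to 112456050, and the floor of 3 counts lay between 0.0267 and 0.3365 CPM, which covers counting error only. The source labels of the organs name thioglycollate while their titles, tissues and the methods give CLP. Both of the later β-NMN hearts carry the number 3, and mouse identity shared with a lung numbered 2 made 1 of them replicate 2.

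edgeR 4.0.16 (R 4.3.3) was run on each tissue separately, with filterByExpr, TMM scaling and the legacy quasi-likelihood test, and p-values were adjusted by Benjamini-Hochberg over all genes tested. A gene is called at an adjusted p below 0.05. Heart and lung were compared over the 12 CLP libraries with treatment as an additive term. An interaction of treatment and organ was fitted on the same libraries. Both organs came from the same mice, so that the mouse was added as a block in an alternative. Deviations of the organs of 1 mouse from their group means correlated at 0.04 to 0.15. CPM were scaled by the TMM library size, and log2 CPM used a prior count of 2. Exon lengths and positions are from GENCODE M21 (GRCm38), and promoter windows and miRNAs from RefSeq (GRCm38.p6). The test was checked on simulated counts, where 86.3%, 59.0% and 100.0% of those among 200 planted log2 changes of 2 that passed the filter were called in hearts, lungs and peritoneal cells and 87.4% between organs. False calls numbered 9, 5, 9 and 7. The simulated spread of a gene followed from its level alone and no library stood apart, so that recovery in the real organs may be lower.

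The 10 genes, the lists and the marker sets were chosen with earlier results of these data known. Named from the lists were called genes, up to the 4 with the smallest p per direction and tissue, or the 2 with the smallest p where none was called. Of the genes picked in this way 1 is not reported here, and all others are. Genes most like H19 and Igf2r were the 5 with the highest Pearson correlation among genes whose log2 CPM averaged 1 or more. Alternatives were DESeq2 1.42.0 and its size factors, no low-count filter, the newer quasi-likelihood fit, both organs in one fit, a replicate block, vehicle mice only and leaving out each library or mouse. Fits by depth were added after the totals were seen.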

Additional observations from a re-analysis of the deposited data

Results flagged for a closer look

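Among 20 groups of 6 peritoneal libraries, 1 for each imprinted gene and treatment, 3 held a library far from the other 5 by Dixon's criterion. For values with a normal spread the criterion marks about 1 group in 20, but several of these groups rest on few counts. No excess over that rate is read from the number. H19 in vehicle replicate 4 was at 1.49 CPM, the next vehicle library being at 0.52 CPM, so that the gap was 0.659 of the range of the group. H19 in β-NMN replicate 4 was at 0.179 CPM with the next library at 0.0531 CPM, which rests on 8 counts. Igf2r in β-NMN replicate 6 was at 284 CPM, the next β-NMN library being at 217 CPM.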

How the results depend on the processing

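Igf2 and Dlk1 in lungs and H19, Igf2, Peg3 and Mest in peritoneal cells fell below the filter. Peritoneal libraries had totals as high as those of hearts, whereas most lungs had lower totals. Lungs also had the largest spread between mice (biological coefficient of variation 0.437, against 0.293 in hearts and 0.233 in peritoneal cells). Since low counts in peritoneal libraries were mostly even, their totals and spread may not compare directly with those of the organs. The reason for the even counts was not tested. The number of genes called in hearts, 0 with the quasi-likelihood fit, was 3 without the low-count filter and 283 with DESeq2, and between 0 and 5 without single libraries, the 5 arising without vehicle replicate 2. In lungs DESeq2 called 9 genes. In peritoneal cells the 7733 genes became 4244 in the 7 shallow libraries alone and 5717 in the 5 deep libraries alone. The 11909 genes that differed between organs became 6079 in the vehicle mice alone, also with fewer samples, and between 10751 and 14226 without single mice. Of the imprinted genes, 0 were called in lungs in every alternative run, and the 3 called in peritoneal cells were 2 in the shallow libraries and 4 both without the filter, where H19 was added, and in the deep libraries, where Peg3 was added. Peg3 had 26, 24 and 14 counts in the deep vehicle libraries and 2 and 5 counts in the deep β-NMN libraries. It passed the filter there through vehicle alone, so that it had to differ to be tested and nothing is read from its call. Between organs 4 to 6 of them, Igf2 included, were called over the alternatives run. Signs turned for values that were not called. In lungs, leaving out single libraries moved Igf2r from -0.05 to 0.56, Meg3 from -0.87 to 0.30, Peg3 from -0.14 to 0.29 and Mest from -0.01 to 1.36 on the log2 scale. In peritoneal cells, leaving out single libraries moved Igf2r from -0.15 to 0.04 and Meg3 from -0.58 to 0.01, and in the shallow libraries Igf2r was 0.27 and Dlk1 0.04. Between organs Plagl1 was 0.56 in the vehicle mice alone and between -0.44 and 0.11 without single mice. The cause of these changes was not tested. Replicate numbers of vehicle and β-NMN mice mark different animals: deviations of same-numbered libraries correlated at 0.07 to 0.24 in hearts, -0.52 to 0.30 in lungs and -0.17 to 0.13 in peritoneal cells. With the replicate number as a block 0 genes were called in hearts, 0 in lungs and 7010 in peritoneal cells, including the same count of 3 imprinted genes, and the mouse as a block left 11699 genes between organs. The block changed no other call of the imprinted genes than that of Meg3 between organs, given above.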

Other observations

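Cdkn1c and Plagl1 were the most abundant of the imprinted genes in peritoneal cells after Igf2r, and both rose with β-NMN. The ratio of Cdkn1c to Plagl1 counts within a library lay between 0.102 and 0.3 in vehicle and between 0.0891 and 0.274 in β-NMN libraries, so that the ratio overlapped between the groups while both levels did not. In hearts the same ratio was 1.38, 0.256 and 1.15 in vehicle and 3.78, 4.15 and 1.62 in β-NMN mice, without overlap. The ratio of 0.256 is that of vehicle replicate 2, the heart that stood apart. Nothing is read from the heart ratios, since the heart values led to the choice of the genes. In lungs it was 2.13, 1.73 and 1.77 in vehicle and 3.64, 1.17 and 1.82 in β-NMN mice, with overlap.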
